A study of Mus musculus with 9 samples.

Results

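Apoptotic cell uptake receptors and bridges are represented by 9 genes of the 53379 in the table, chosen by name and not by level: the TAM receptors Tyro3, Axl and Mertk, their ligands Gas6 and Pros1, the bridging protein Mfge8, and the receptors Timd4, Stab2 and Lrp1. All 9 were found, each under 1 Ensembl identifier. The choice was made with earlier results of these data known. The cells were Mϕs grown from the bone marrow (BM) of 3 wild-type C57BL/6 mice, cultured with MCSF at 10 ng/ml for 3 days and then for 4 days with MCSF alone (control), with MCSF plus IL-4 at 10 ng/ml, or with MCSF plus IL-6 at 100 ng/ml. All 9 libraries, 3 in each group, therefore received MCSF. Doses are those of each library's treatment label. The study's methods give a higher IL-4 dose, its legends give other cytokine doses and a shorter treatment, and the shared treatment text of the labels calls the IL-4 arm IL-5 and garbles the IL-6 dose. Ages of the mice were not given in the sources used here. Levels are FPKM, fragments scaled to the exonic length of the gene and to the depth of the library, so levels of different genes can be set beside each other.

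Removal of dying cells, termed efferocytosis, starts when a phagocyte recognizes phosphatidylserine that has moved to the outer face of the dying cell's membrane. Some receptors bind this lipid directly, among them TIM-4 (Timd4) and stabilin-2 (Stab2). The TAM receptor tyrosine kinases instead bind it through a bridge: GAS6 binds all 3 TAM receptors, whereas protein S (Pros1) binds TYRO3 and MERTK. MFG-E8 (Mfge8) bridges the same lipid to αv integrins, and LRP1 takes up cells that display calreticulin. MERTK is the TAM receptor best known for uptake by resting tissue Mϕs, and AXL is the one best known for its induction by inflammatory signals.

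Depth ranged from 29988160 to 39909571 fragments per library. The libraries fell into 2 sets that cut across the groups: fragments of 15 intestinal Paneth and goblet cell genes numbered 1026 to 1366 in the 3 control libraries and IL-4 replicate 1, and 3 to 8 in the other 5. The controls all belong to the former set and the IL-6 libraries all to the latter, and set and treatment cannot be told apart for IL-6 against control, except through the IL-4 libraries that fall in both. IL-4 replicate 3 had lower values in longer genes, with a slope of −0.12 in log2 level per doubling of exon length against −0.04 to 0.05 in the other 8. All 8 Mϕ markers were detected in every library, at a summed level of 16700 to 19000 FPKM in control, 6100 to 7130 in IL-4 and 20400 to 21500 in IL-6, with Lyz2 as the most abundant. The 8 granulocyte markers summed to 4330 to 7830 FPKM in control, 1950 to 3940 in IL-4 and 7010 to 9820 in IL-6, and the 5 mast cell and basophil markers to 5.74 to 12.0, 31.0 to 48.1 and 3.12 to 9.59, with none of their genes at 0 in any library. Most of the granulocyte sum came from S100a8 and S100a9, and the granulocyte markers did not move alike with IL-6. Ltf was at 276 to 400 FPKM in IL-6 against 163 to 261 in control, and Retnlg at 95.1 to 195 against 182 to 350. Elane and Mpo overlapped the controls. The part of granulocytes, mast cells and basophils in the changes below was not tested. In bulk RNA, fewer cells of a type and less RNA per cell cannot be told apart.

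The windows of 250 bases before the RefSeq start are shown for Axl, Gas6 and Pros1, the 3 members called with IL-4. They come from RefSeq on GRCm38.p6 and are written 5′ to 3′ on the strand of the gene, with capitals marking a match to TTCNNNGAA, the palindrome that STAT proteins recognize, or to its variant with 4 free bases in the middle. Axl lies at chr7:25788734-25788983 on the minus strand, Gas6 at chr8:13494536-13494785 on the minus strand and Pros1 at chr16:62854057-62854306 on the plus strand.
Axl: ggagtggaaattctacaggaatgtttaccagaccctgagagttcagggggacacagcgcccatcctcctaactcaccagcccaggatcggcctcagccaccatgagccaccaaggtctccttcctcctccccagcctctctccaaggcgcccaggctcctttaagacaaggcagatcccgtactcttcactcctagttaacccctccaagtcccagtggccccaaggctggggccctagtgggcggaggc
Gas6: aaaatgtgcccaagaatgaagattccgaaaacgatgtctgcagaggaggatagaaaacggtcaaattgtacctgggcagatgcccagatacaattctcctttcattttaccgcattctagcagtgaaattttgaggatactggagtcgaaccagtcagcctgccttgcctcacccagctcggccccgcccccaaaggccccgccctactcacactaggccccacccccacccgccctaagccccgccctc
Pros1: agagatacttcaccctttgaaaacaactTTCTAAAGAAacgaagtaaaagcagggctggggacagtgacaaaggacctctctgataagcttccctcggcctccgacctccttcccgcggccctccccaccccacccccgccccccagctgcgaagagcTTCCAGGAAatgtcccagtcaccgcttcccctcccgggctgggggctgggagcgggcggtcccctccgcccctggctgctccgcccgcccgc

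Pros1 held TTCCAGGAA, starting 92 bases before the RefSeq start, and TTCTAAAGAA, starting 222 bases before it. Of 32817 such windows genome-wide, chromosome 18 aside, 7.01% held TTCNNNGAA and 5.85% the variant. Both read the same on either strand, and the 2 matches of Pros1 do not overlap. Among the other 8 members, Lrp1 had 1 match, TTCCCAGAA at 232 bases before its start. No member's window held the AP-1 core TGANTCA (6.75% of windows) or ACGTG, 1 form of the hypoxia response core (16.6% of windows). The form GCGTG was not searched. A match is a description of letters, and a missing match says only that these letters are not in this window.

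Members were called in the limma test over 12824 genes, those with a mean of at least 0.5 FPKM, where the log2 fold change reached 1 in size at an adjusted p under 0.05. Against control, IL-4 called 3 members, beside 13.9% of all tested genes. Axl and Gas6 were lower (8.89% of tested genes) and Pros1 was higher (5.02%). IL-6 called 2 members against control, beside 5.38% of tested genes, and both, Axl and Stab2, were lower (1.89% of tested genes, with 3.49% higher). Between the cytokines 2 members were called, beside 20.4% of tested genes, with Gas6 higher in IL-6 (13.6%) and Mfge8 lower in IL-6 (6.82%). The adjusted p alone was under 0.05 for 5, 3 and 3 members in these comparisons, beside 24.8%, 8.4% and 34.1% of tested genes. Groups did not overlap for 8, 5 and 5 of the 9 members, beside 40.3%, 43.2% and 56.9% of tested genes. The 690 calls of IL-6 against control over all genes became 387 without control replicate 3, 445 without control replicate 2, 424 without IL-6 replicate 2, 408 without IL-6 replicate 3, 1001 without IL-4 replicate 3 and 187 with a covariate for the set, under which the 1784 of IL-4 against control became 1111. The comparisons with control share the control libraries. Tyro3 and Timd4 lay under the filter and were read from the same fit without it, and the other 7 members passed. The median log2 fold change of the 9 members was −0.99 with IL-4, beside −0.20 over all tested genes, and −0.61 with IL-6, beside −0.00. Of all tested genes, IL-4 called 644 higher and 1140 lower, and 838 and 868 after rescaling each library by its median ratio, which moved the median of all genes to −0.00. The calls of Axl, Gas6 and Pros1 with IL-4 had the same direction under that rescaling.

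**Figure D1:**
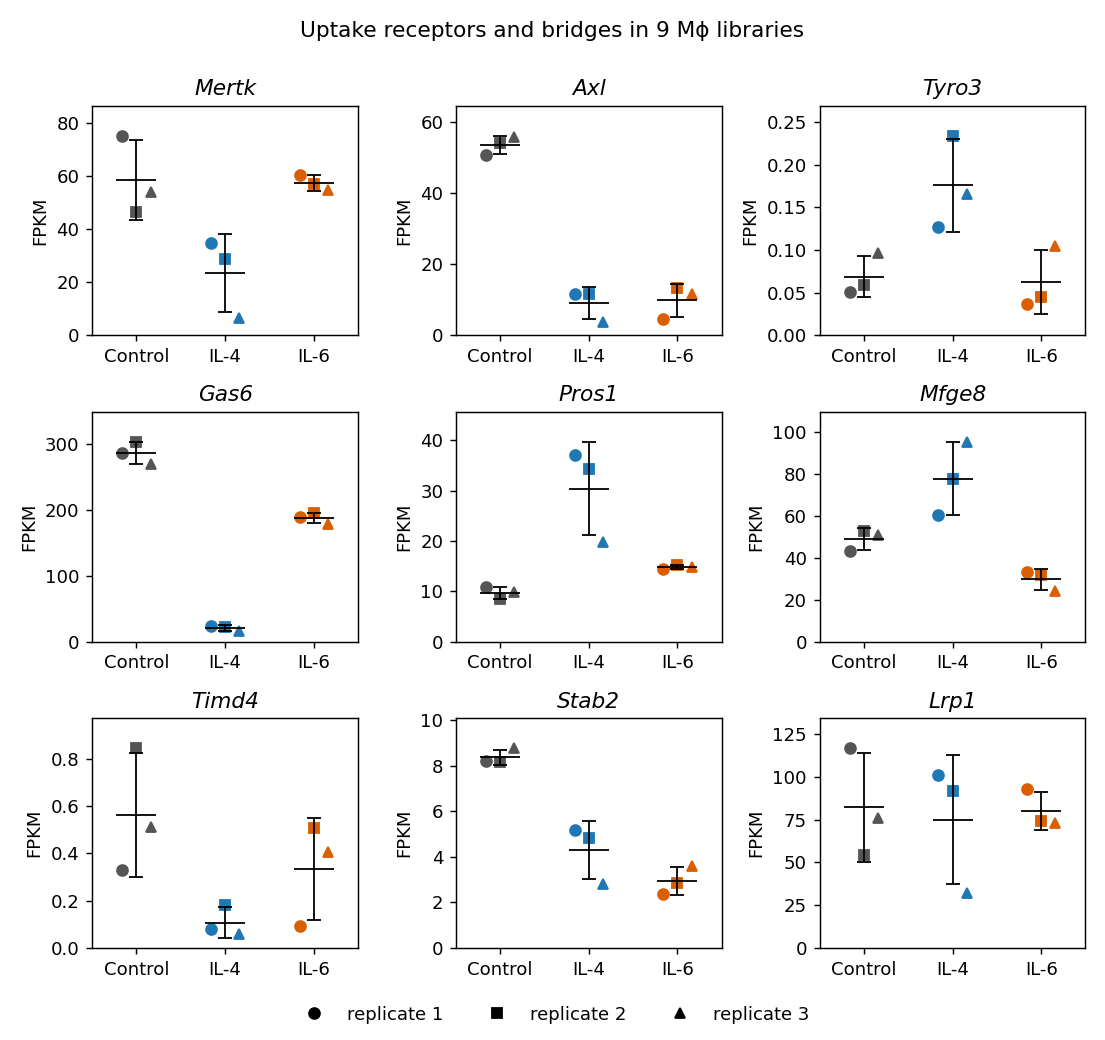
FPKM (vertical axes, each from 0) of the 9 members in control, IL-4 and IL-6 Mϕs. Each point is a library, with the replicate given by its shape, and the long dash and bars are the mean and SD of 3 libraries. Axl was between 50.7 and 55.9 in control and at most 13.4 in the other 6 libraries, whereas Gas6 was low with IL-4 only, at 16.4 to 23.8.

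The order of levels differed between the groups. In control Mϕs Gas6 was the most abundant member at 286 ± 16.2 FPKM (SD, n = 3), higher than 99.0% of tested genes. Lrp1 (82.2 ± 31.7), Mertk (58.6 ± 15.0), Axl (53.6 ± 2.60) and Mfge8 (49.0 ± 5.22) followed, and each overlapped its neighbour in this order. Pros1 (9.77 ± 1.19) and Stab2 (8.37 ± 0.338) also overlapped. With IL-4, Mfge8 (77.9 ± 17.3) and Lrp1 (75.0 ± 37.4) led and overlapped, and Pros1, Mertk and Gas6 came next with overlapping ranges. With IL-6, Gas6 led again, and the next 6 in the order, Lrp1, Mertk, Mfge8, Pros1, Axl and Stab2, were each separate from their neighbours. Timd4 and Tyro3 were the lowest in every group.

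Axl encodes the TAM receptor that binds GAS6 with high affinity. The gene lies at chr7:25757273-25788705 on the minus strand (GRCm38, GENCODE M21, as for the genes below). Its levels were 50.7, 54.1 and 55.9 FPKM in control, 11.5, 11.8 and 3.75 after IL-4, and 4.57, 13.4 and 11.7 after IL-6. Both cytokine groups lay entirely below the controls and overlapped each other. Mean Axl was 5.94-fold lower with IL-4 than in control (log2 fold change −2.73, SE 0.51, limma adjusted p = 0.00615). With IL-6 it was 5.42-fold lower (log2 fold change −2.57, SE 0.51, adjusted p = 0.0199). IL-4 and IL-6 differed in Axl by 0.16 on the log2 scale, with a 95% interval of −1.02 to 1.34. Within the set that holds the controls, IL-4 replicate 1 was 4.64-fold below the control mean, a value with no replicate. When the set entered the model as a covariate, neither Axl difference passed the test (−2.20, adjusted p = 0.103 for IL-4, and −1.78, adjusted p = 0.292 for IL-6). The IL-6 call was also lost without any 1 of the 3 control libraries or without IL-6 replicate 1 or 3, at adjusted p of 0.0543 to 0.0817.

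Mertk encodes the TAM receptor through which both GAS6 and protein S drive uptake. It lies at chr2:128698956-128802894 on the plus strand. Its levels were 75.3, 46.3 and 54.1 FPKM in control, 34.9, 28.9 and 6.69 after IL-4, and 60.6, 57.0 and 54.7 after IL-6. The IL-4 libraries lay below all other libraries, and the IL-6 libraries overlapped the controls. Neither difference of the IL-4 group passed the test (log2 fold change −1.59, SE 0.55, adjusted p = 0.0692 against control, and 1.59, adjusted p = 0.0548, for IL-6 against IL-4). IL-4 replicate 3 had the lowest Mertk level, and without it IL-4 was at −0.85 on the log2 scale against control (adjusted p = 0.01), below the fold threshold. Without IL-4 replicate 1 the difference was −2.03 (adjusted p = 0.0307) and was called. It was also called after length and GC trends were removed (−1.65, adjusted p = 0.0451). The difference between the cytokines was called in 7 of 21 alternatives, among them a covariate for the set (2.03, adjusted p = 0.0236), quantile normalization (1.52, adjusted p = 0.0425) and leaving out IL-4 replicate 1 (2.03, adjusted p = 0.0235). IL-6 and control differed in Mertk by 0.00 on the log2 scale, with a 95% interval of −1.26 to 1.26. The covariate for the set moved this to 1.32 (adjusted p = 0.341), and IL-4 against control to −0.71 (adjusted p = 0.64).

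Tyro3, the TAM receptor best known from neurons, was scarce, with 8 to 44 fragments per library. It was at 0.0508 to 0.0966 FPKM in control, 0.127 to 0.234 with IL-4 and 0.037 to 0.105 with IL-6. The IL-4 libraries were above all others, but at these counts the difference did not pass the test (log2 fold change 0.70, adjusted p = 0.159).

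Within each library the 3 receptor levels were added and each taken as a share. The summed TAM receptor level averaged 112 ± 12.9 FPKM in control Mϕs, 67.4 ± 2.72 in IL-6 and 32.7 ± 19.4 in IL-4 libraries (SD, n = 3), and no 2 groups overlapped. Axl made up 48.3 ± 7.13% of the sum in control, 29.6 ± 5.34% after IL-4 and 14.5 ± 6.57% after IL-6, and Mertk 51.7 ± 7.14%, 69.6 ± 6.01% and 85.4 ± 6.60%. Tyro3 was at most 1.56% of the sum in any library. The ratio of Axl to Mertk was 0.674, 1.17 and 1.03 in control, 0.331, 0.407 and 0.560 after IL-4, and 0.0753, 0.236 and 0.213 after IL-6. Every group was separate from the others. On the log2 scale the ratio was at −1.14 relative to control after IL-4 and at −2.58 after IL-6, and IL-6 was at −1.44 relative to IL-4, or −0.91 without IL-6 replicate 1. Each difference had p = 0.1 in a two-sided exact permutation test, the smallest p that 3 libraries against 3 can give.

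**Figure D2:**
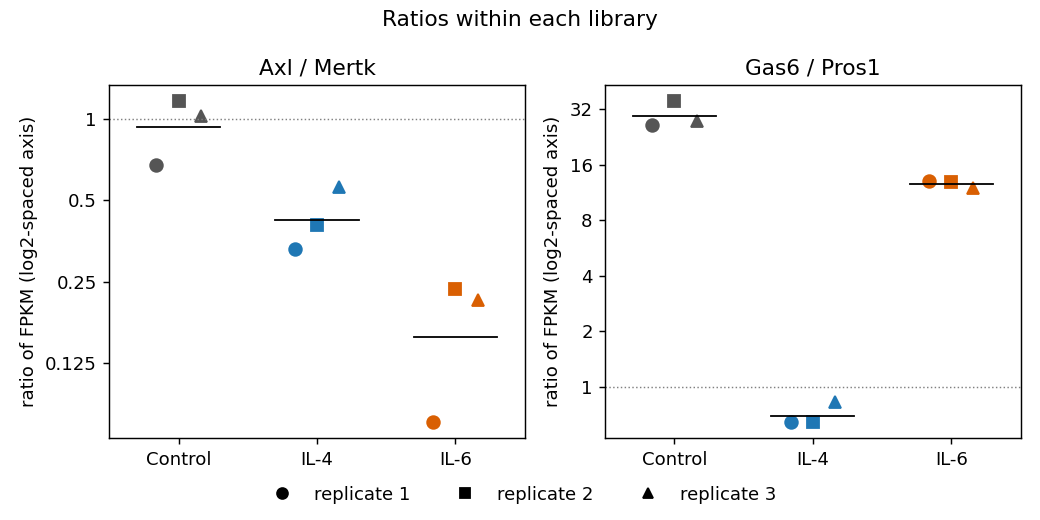
Ratio of Axl to Mertk (left) and of Gas6 to Pros1 (right) in each library, on log2-spaced axes, with the group's geometric mean as a line and a ratio of 1 dotted. Gas6 exceeded Pros1 in all control and IL-6 libraries, with ratios of 12.0 to 35.4, and was below it in the 3 IL-4 libraries, with ratios of 0.639 to 0.823.

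Gas6 encodes the vitamin K-dependent ligand of all TAM receptors. It lies at chr8:13465374-13494490 on the minus strand. Its levels were 286, 302 and 270 FPKM in control, 23.8, 21.9 and 16.4 after IL-4, and 189, 194 and 179 after IL-6. The IL-4 libraries were far below all others, and the IL-6 libraries were between the other groups with no overlap. Gas6 fell 13.8-fold with IL-4 (log2 fold change −3.80, SE 0.15, limma adjusted p = 2.69e-06) and was 9.05-fold higher with IL-6 than with IL-4 (3.19, adjusted p = 2.77e-06). These 2 calls held in all 21 alternatives tried, at log2 fold changes of −3.91 to −3.58 and 2.96 to 3.43. Within sets, IL-4 replicate 1 was 12.0-fold below the mean of control, and the IL-6 libraries averaged 9.79 times the other 2 IL-4 libraries. Against control, IL-6 gave −0.61 (SE 0.15, adjusted p = 0.0432), which did not reach the fold threshold. With a covariate for the set this was −0.28 (adjusted p = 0.437). Without any 1 control or IL-6 library the adjusted p was 0.109 to 0.163. Of the exonic bases of Gas6, 1.33% lie opposite exons of Tmem255b.

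Pros1 encodes protein S, the anticoagulant cofactor that also acts as a TAM ligand. It lies at chr16:62854307-62929346 on the plus strand. Its levels were 10.9, 8.55 and 9.82 FPKM in control, 37.1, 34.3 and 19.9 after IL-4, and 14.5, 15.2 and 14.9 after IL-6. The 3 groups did not overlap, and IL-4 was the highest. Pros1 rose 3.12-fold with IL-4 (log2 fold change 1.59, SE 0.23, limma adjusted p = 0.00164), a call that held in all 21 alternatives, at 1.42 to 1.92. IL-4 replicate 1 was 3.80 times the control mean of its set. With IL-6 the difference from control did not pass the test (0.61, SE 0.23, adjusted p = 0.168), and none of the 21 alternatives called it. Its adjusted p was 0.00893 with the groups compared alone, 0.00387 without IL-4 replicate 3 and 0.0478 after rescaling by the median ratio. With the covariate for the set it was at 1.11 (adjusted p = 0.201). Between the cytokines, Pros1 was 2.05-fold lower with IL-6 (−0.98, adjusted p = 0.0122), just short of the fold threshold, and it was called at −1.26 without IL-4 replicate 3, at −1.21 after rescaling by the median ratio, and at −1.09 after quantile normalization.

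Gas6 and Pros1 together stood at 296 ± 15.6 FPKM in control Mϕs, 202 ± 8.09 in IL-6 and 51.1 ± 13.1 in IL-4 libraries (SD, n = 3). Pros1 made up 3.31 ± 0.496% of this sum in control, 58.9 ± 3.52% after IL-4 and 7.35 ± 0.303% after IL-6. In every IL-4 library Pros1 was thus the more abundant TAM ligand transcript, and in every other library Gas6 was. The log2 ratio of Gas6 to Pros1 was 4.88 ± 0.233 in control, −0.52 ± 0.209 after IL-4 and 3.66 ± 0.0636 after IL-6. Relative to control it was at −5.40 in IL-4 and −1.22 in IL-6 libraries, and IL-6 was at 4.18 relative to IL-4, each with exact permutation p = 0.1.

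Mfge8 encodes the secreted bridge to αv integrins. It lies at chr7:79133768-79149060 on the minus strand. Its levels were 43.1, 53.0 and 50.9 FPKM in control, 60.7, 77.7 and 95.4 after IL-4, and 33.5, 32.1 and 24.2 after IL-6. The 3 groups did not overlap, with IL-4 highest and IL-6 lowest. Mfge8 was 2.61-fold lower with IL-6 than with IL-4 (log2 fold change −1.37, SE 0.20, adjusted p = 0.00123), a call kept in all 21 alternatives. The IL-4 libraries of the same set as IL-6 averaged 2.89 times the IL-6 libraries. Against control neither cytokine was called, at 0.65 (adjusted p = 0.0447) for IL-4 and −0.72 (adjusted p = 0.0653) for IL-6. The covariate for the set moved these to 0.31 (adjusted p = 0.517) and −1.22 (adjusted p = 0.116). Without any 1 control library, the adjusted p for IL-4 was 0.0812 to 0.145.

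**Figure D3:**
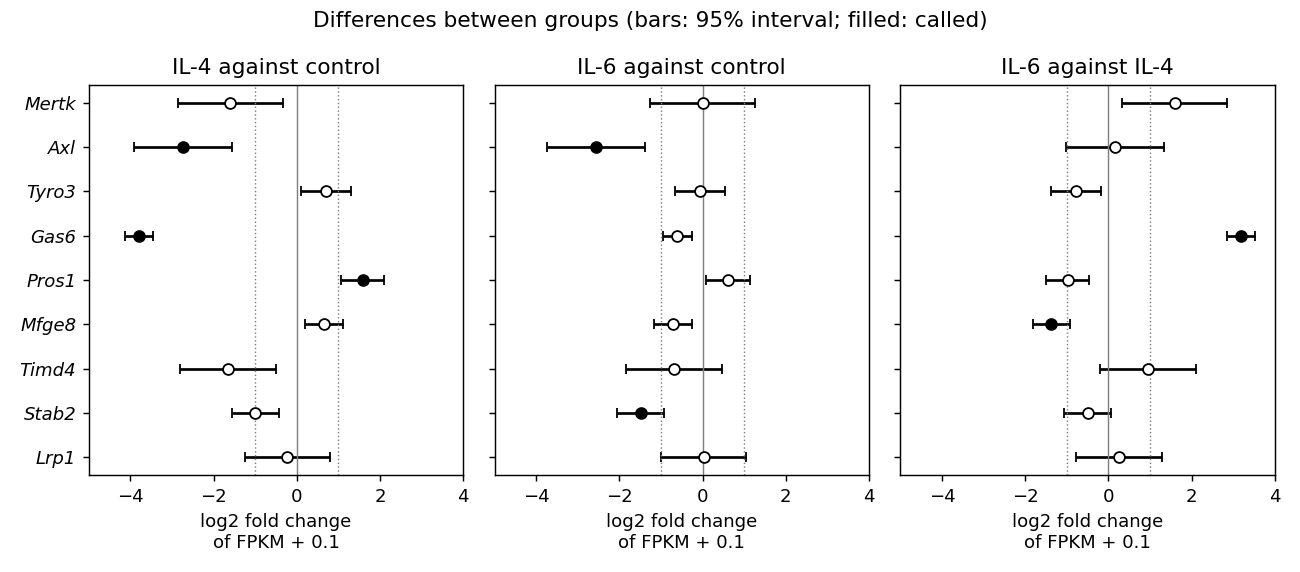
Log2 fold changes of the 9 members (horizontal axes) in the 3 comparisons, from limma on log2(FPKM + 0.1), with 95% intervals as bars. Filled points were called and dotted lines mark a log2 fold change of 1 in size. Gas6 had the narrowest intervals, from −4.14 to −3.45 for IL-4 against control.

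Stab2 encodes stabilin-2, a scavenger receptor known from liver sinusoidal endothelium that binds phosphatidylserine. It lies at chr10:86841198-87008025 on the minus strand. Its levels were 8.20, 8.15 and 8.75 FPKM in control, 5.19, 4.84 and 2.83 after IL-4, and 2.39, 2.86 and 3.61 after IL-6. All treated libraries lay below the controls, and the cytokine groups overlapped. Stab2 was 2.83-fold lower with IL-6 than in control (log2 fold change −1.49, SE 0.25, limma adjusted p = 0.0087). With a covariate for the set this was −1.01 and did not pass the test (adjusted p = 0.257). With IL-4 it was at −0.99 (adjusted p = 0.0202), just short of the fold threshold, and it was called at −1.15 without IL-4 replicate 1, at −1.10 without IL-4 replicate 2, at −1.01 with a pseudocount of 0.01 and at −1.01 with limma voom on the fragments. The adjusted p was above the threshold without each control library (0.0574 to 0.0725), with the groups compared alone (0.0539) and with the covariate for the set (−0.68, adjusted p = 0.268). All 6 endothelial markers were under 1 FPKM in every library, at most 0.597 for Kdr. Which cells the Stab2 fragments came from was not tested. Of the exonic bases of Stab2, 1.61% lie opposite exons of Gm16268.

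Timd4 encodes TIM-4, the phosphatidylserine receptor of resident peritoneal and liver Mϕs. It was low, with 5 to 55 fragments per library, and stood at 0.330, 0.844 and 0.511 FPKM in control, 0.0808, 0.182 and 0.0577 after IL-4, and 0.0923, 0.507 and 0.405 after IL-6. The IL-4 libraries were all below the controls, and the IL-6 libraries overlapped both groups. The difference with IL-4 did not pass the test (log2 fold change −1.65, SE 0.50, adjusted p = 0.0849). It was called without IL-6 replicate 1 (adjusted p = 0.042).

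Lrp1 encodes a large endocytic receptor that also binds ApoE-containing particles, and its exons, at 17717 bases together, are the longest of the 9. Its levels were 116, 54.1 and 75.9 FPKM in control, 101, 91.9 and 32.1 after IL-4, and 92.7, 74.4 and 73.2 after IL-6. All groups overlapped, and IL-4 replicate 3 was the lowest. The differences from control were −0.23 on the log2 scale with IL-4 (95% interval −1.26 to 0.80) and 0.03 with IL-6 (95% interval −1.002 to 1.055). A fall of 1 on the log2 scale lay within both intervals. The IL-4 value was 0.30 without IL-4 replicate 3 and 0.06 without control replicate 1. It was 0.10 after removal of length and GC trends and 0.37 with the covariate for the set. That covariate moved the IL-6 value to 0.92 (limma adjusted p = 0.418).

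For each called member, the tested genes with the most similar pattern were sought by Pearson's r of log2(FPKM + 0.1) over the 9 libraries, which share their 3 groups and the 2 sets. For Gas6 these were Cln3 (r = 0.998), Slc7a7 (0.996) and Otulinl (0.996), and for Pros1 Slc30a4 (0.993), Mmp19 (0.989) and Flt1 (0.989). Among the genes most like Axl were Rnf144b (0.988) and Dvl2 (0.98). Stab2 was most like Letmd1 (0.983), Rab7b (0.98) and Slc37a2 (0.978), and Mfge8 was most like Anxa7 (0.99), Tcirg1 (0.984) and Nsun2 (0.981). Pearson's r takes no account of the size of a change. Cln3 spanned 13.2 to 25.85 FPKM where Gas6 spanned 16.35 to 302.3, and Slc30a4 spanned 1.21 to 14.63 where Pros1 spanned 8.549 to 37.1.

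A further 72 genes of apoptotic cell uptake, in 7 lists, set these members among the rest of the pathway. The lists were written with earlier results of these data known, and what that choice adds to their shares of calls was not tested. With IL-4, 19 were called, 8 higher and 11 lower, and with IL-6 10 were called, 5 in each direction. Of the 66 that passed the filter, 27.3% were called with IL-4 and 15.2% with IL-6, beside 13.9% and 5.38% of all tested genes, with median log2 fold changes of −0.33 and 0.05. Between the cytokines 26 were called, 17 higher and 9 lower with IL-6 (37.9% of those past the filter, beside 20.4% of all tested genes), led by Thbs1 (5.34, adjusted p = 8.08e-05) and Cd36 (−5.04, adjusted p = 3.72e-06). With a covariate for the set of libraries, 12 of the 19 calls of IL-4 against control were kept, and Abl1, Adam17, Havcr2, Lgals3, Rubcn, Rxra and Thbs1 were lost. Of the 10 calls with IL-6, 2 were kept under that covariate, Cd36 and C3. Without IL-4 replicate 3, the IL-4 calls of Abl1, Adam17, Lgals3, Rubcn and Rxra were lost, and after rescaling by the median ratio those of Adam17, C1qc, Rubcn, Rxra and Vav1. Without control replicate 1, those of Adam17, Lgals3 and Rubcn were lost, and without control replicate 3 those of Adam17 and Lgals3. The IL-4 call of Abl1 was also lost when any single control or IL-6 library was left out, and that of Elmo2 without control replicate 2, IL-4 replicate 1 or IL-4 replicate 2. With IL-6, the calls of Abcg1 and Cd14 were lost when any single control or IL-6 library was left out, that of Lgals3 when any of these except control replicate 1 was, that of C1qa without control replicate 3, IL-6 replicate 2 or IL-6 replicate 3, and that of Havcr2 without IL-6 replicate 3.

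Among 16 other recognition receptors, IL-4 called 1 higher and 3 lower, and IL-6 called 2 in each direction. Over all tested genes, IL-4 called 5.02% higher and 8.89% lower, and IL-6 called 3.49% higher and 1.89% lower. Stab1, the paralog of Stab2, was at 236 to 342 FPKM in control and 2.60 to 7.99 with IL-4, a fall of −5.65 on the log2 scale (SE 0.38, limma adjusted p = 3.19e-05), while with IL-6 it was at 148 to 166 (−0.79, adjusted p = 0.286). Cd36, a scavenger receptor that works with thrombospondin, rose with IL-4 (1.54, adjusted p = 0.00256) and fell with IL-6 (−3.50, adjusted p = 0.000171). Cd14, a receptor for lipopolysaccharide that also tethers dying cells, moved the opposite way, at −2.53 with IL-4 (adjusted p = 0.000366) and 1.27 with IL-6 (adjusted p = 0.0262). Havcr2, which encodes TIM-3, fell with both (−1.23 and −1.28, adjusted p = 0.00462 and 0.00976). Itgb3, a partner of αv in the integrin that MFG-E8 binds, rose with IL-6 (1.66, adjusted p = 0.00403) and gave 0.95 with IL-4 (adjusted p = 0.0193), under the fold threshold.

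Of 10 further bridging and opsonizing proteins, IL-4 called 3 higher and 2 lower (5.02% and 8.89% of tested genes), and IL-6 called 3 higher and 1 lower (3.49% and 1.89%). Thbs1, which encodes the bridging protein thrombospondin-1, fell with IL-4 from 148 ± 50.8 to 28.4 ± 15.4 FPKM (−2.53, SE 0.46, limma adjusted p = 0.00555) and rose with IL-6 to 1006 ± 58.4 (2.81, adjusted p = 0.0087; SD, n = 3). Anxa1, a phosphatidylserine-binding annexin, rose with IL-4 (1.67, adjusted p = 0.000187) and C1qc, a chain of the first complement component, fell (−1.17, adjusted p = 0.000509). Edil3, a relative of Mfge8, was called higher with IL-4 at levels of only 0.139 to 0.210 FPKM. With IL-6, the complement genes C3 (2.32, adjusted p = 0.00734) and C1qa (1.20, adjusted p = 0.0107) rose and Lgals3, which encodes galectin-3, fell (−1.31, adjusted p = 0.0275).

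Lipid sensing and export, which handle the cholesterol of an ingested cell, had 4 of 9 genes called with IL-4 and 2 with IL-6, beside 13.9% and 5.38% of tested genes. Apoe, a ligand of LRP1, was at 398.7 ± 113.6 FPKM after IL-4 against 9377 ± 1592 in control (−4.58, SE 0.23, limma adjusted p = 8.77e-06), and was at −0.52 with IL-6 (adjusted p = 0.249). Pparg rose with IL-4 (1.38, adjusted p = 0.00254) and fell with IL-6 (−2.09, adjusted p = 0.000944), and the exporter gene Abcg1 did likewise (1.28, adjusted p = 0.00674, and −1.08, adjusted p = 0.0336). Rxra, the partner receptor of Pparg, fell with IL-4 (−1.14, adjusted p = 0.00323).

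Engulfment signaling genes, which act downstream of the receptors, had 4 of 13 called with IL-4, beside 13.9% of tested genes. Ptk2 (1.88, adjusted p = 0.000256) and Elmo2 (1.02, adjusted p = 0.0149) were higher and Abl1 (−1.50, adjusted p = 0.0328) and Vav1 (−1.15, adjusted p = 0.000323) lower. Of 14 phagosome processing genes only Rubcn, a regulator of LC3-associated phagocytosis, was called with IL-4 (−1.16, adjusted p = 0.0151), a call also lost after quantile normalization and after removal of length and GC trends. Of 8 genes that mature or shed TAM receptors, their ligands and Lrp1, only Adam17 was, the sheddase of MERTK and AXL ectodomains, at 17.7 ± 6.48 FPKM against 35.8 ± 5.87 in control (−1.07, adjusted p = 0.0247). In these 3 lists IL-6 called 0 genes by limma and 0 by limma voom, beside 5.38% of all tested genes called by limma. Lists this short can hold 0 calls at that share. By limma, 2, 4 and 3 of their genes were at an unadjusted p under 0.05, a share that was not taken over all genes. Cd47 and Sirpa, the whole of the list of genes that restrain uptake, were not called in either comparison, with Sirpa at −0.77 with IL-4 (adjusted p = 0.00101) and Cd47 at 0.31 (adjusted p = 0.0304).

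**Figure D4:**
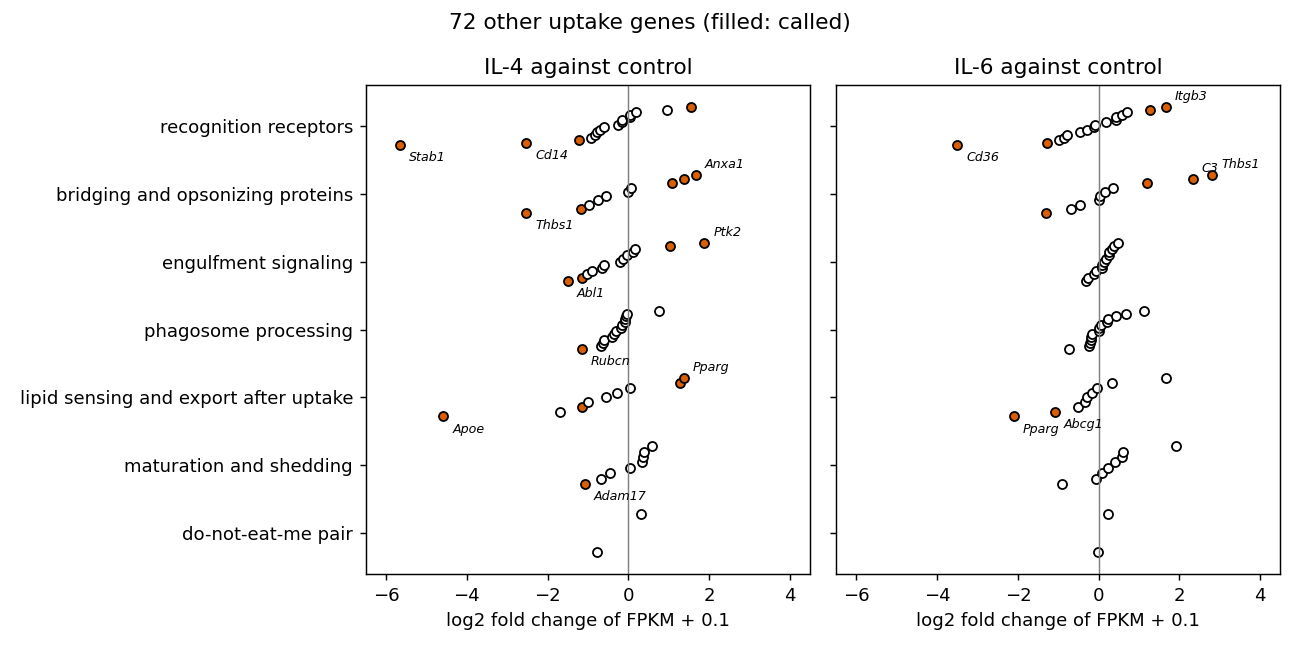
Log2 fold changes (horizontal axes, FPKM + 0.1) of the 72 other uptake genes by list, for IL-4 and IL-6 against control. Each point is a gene, filled points were called, and up to 2 called genes with the largest changes are named per list. The largest falls were Stab1 (−5.65) and Apoe (−4.58) with IL-4 and Cd36 (−3.50) with IL-6.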

How the data were processed

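RNA was sequenced from 9 Mϕ libraries with a stranded mRNA kit. The authors deposited FPKM per gene, and the submitters' processing notes name STAR 2.4.2a, Cufflinks 2.2.1 and GRCm38. The 157844 low values above 0 that were tested, in the 94.8% of genes matched to GENCODE M21 with their version, were whole fragments over the union of exons (100% within 0.05 of a whole number), so fragments and depth were recovered, and the program that made the table is not settled. Depth was 29988160 to 39909571 fragments, and few fragments limit precision for Tyro3 and Timd4. Intervals in the text come from limma and the spread between libraries.

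FPKM were taken as log2(FPKM + 0.1), and 12824 genes with a mean of at least 0.5 FPKM entered limma 3.58.1 under R 4.3.3 (all 3 groups in 1 model, eBayes with trend and robust, Benjamini-Hochberg adjustment). Fold changes on this scale understate those of low genes. Folds in the text are ratios of mean FPKM. Python 3.11.15 and scipy 1.17.1 gave exact permutation tests of within-library ratios. The script was tested on simulated data. Named genes were all 9 members, for each other list the called genes with the largest changes (at most 4 per comparison), and the 3 most similar genes per called member, of which 1 is not reported here. The members and lists were chosen with earlier results of these data known.

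Alternatives were other pseudocounts, filters, scalings and thresholds, the groups compared alone, a replicate block, the set as a covariate, limma voom on recovered fragments, each library left out and, chosen after seeing the data, removal of length and GC trends. The sets were defined at 20 intestinal fragments. No members shared a stretch of 50 bases with another gene.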

Additional observations from a re-analysis of the deposited data

How the results depend on the processing

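Of 561 recalculated log2 fold changes of members, 0 reversed, 530 stayed on their side of the call threshold, 8 lost a call and 23 gained one. Signs were compared only for log2 fold changes larger than their SE, which leaves out changes of sign in members such as Lrp1, and Axl between the cytokines. Several alternatives also leave a log2 fold change as it was and could not reverse it. These are the filters, the adjusted p alone, the replicate block, the groups compared alone and leaving out a library of a group not compared. With the set as a covariate, IL-6 against control called 0 members (3 at an unadjusted p under 0.05 by limma) in place of 2, and 3 pathway genes in place of 10. That fit rests on the IL-4 libraries to separate set from treatment. An adjusted p under 0.05 alone gave 5 members and 33 pathway genes for IL-4 against control, in place of 3 and 19, since no fold was required. For IL-6 against IL-4, quantile normalization gave 4 members (Mertk and Pros1 added) and limma voom gave 4 (Mertk and Tyro3 added), in place of 2, and the cause was not tested.

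Leaving out each library in turn gave 3 to 5 members for IL-4 against control, the highest without IL-4 replicate 1 (Mertk and Stab2 added), 1 to 2 for IL-6 against control and 2 to 3 for IL-6 against IL-4. For pathway genes it gave 16 to 21, 6 to 13 and 22 to 26, and the count of 6 came without control replicate 3, IL-6 replicate 2 or IL-6 replicate 3. The groups share replicate numbers, written m1 to m3 in the column headers of each group, and the study used 3 mice. That a number marks 1 mouse is not stated. Deviations of replicates 1, 2 and 3 correlated at 0.521, −0.415 and 0.0777 (IL-4 with control), 0.408, 0.201 and 0.166 (IL-6 with control) and 0.281, −0.0612 and 0.153 (both cytokines), and 3, 5 and 3 of 6 libraries correlated best with their own number. With a replicate block, the calls numbered 4, 2 and 3 for members (Timd4 and Mertk added) and 19, 9 and 25 for pathway genes. The paired mean differences of the log2 ratios equal the unpaired ones by arithmetic, for example −1.14 for Axl to Mertk with IL-4, so pairing is no check on them. The ratios kept their direction with FPKM + 1. Leaving out a library could not reverse a ratio, because the groups did not overlap. It moved Axl to Mertk between the cytokines to between −1.74 and −0.91. Depth limits Tyro3 and Timd4, at 5 to 55 fragments.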
